A study of Mus musculus with 4 samples.

Results

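Cell cycle and proliferation genes, 44 in number, were examined in cardiomyocytes, the contracting muscle cells of the heart, from mice with transverse aortic constriction (TAC) and from sham-operated mice. Rows were taken by gene symbol, and all 44 had a row in each library, out of 22322 genes in the files. RNA sequencing gave 4 libraries, 2 from sham mice and 2 from TAC mice. TAC narrows the aorta and places a lasting pressure load on the left ventricle, and sham mice are the operated controls. Per the methods of the study, male mice were operated on at 2 months of age under ketamine and xylazine, and heart cells were freed by Langendorff perfusion, in which enzyme is pumped through the coronary vessels, 14 weeks after surgery. Each library held part of the myocytes of 1 heart. No strain or genotype is given in the sources used here, and no group carried a label for a deletion or a transgene.

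The cell cycle is driven by cyclin-dependent kinases (CDKs), each held active by a cyclin partner. In G1, D-type cyclins with Cdk4 or Cdk6 and E-type cyclins with Cdk2 phosphorylate the retinoblastoma protein, which frees E2F transcription factors to switch on the genes of DNA replication. Entry into mitosis needs cyclin A and B with Cdk1, then the Aurora and Polo-like kinases. The Cip/Kip and INK4 proteins bind and block these kinases, and stress-response genes such as the Gadd45 family hold damaged cells back. Adult mouse cardiomyocytes are known to have largely left the cycle, and they grow in size under pressure load.

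The libraries held 28844755 (sham 1), 27678165 (sham 2), 32118323 (TAC 1) and 24237777 (TAC 2) expected counts, which are estimated reads per gene that need not be whole. A gene is termed called where its adjusted p was under 0.05 over all 12499 genes tested (edgeR quasi-likelihood test, Benjamini-Hochberg adjustment). The library TAC 1 stood apart, with 47.42% of its counts on 13 mitochondrial genes against 39.84% to 40.85% in the others, and members whose call was lost without it are named below. Summed over a list of 15 cardiomyocyte markers, the level ranged from 81175 to 90448 CPM (counts scaled to a common library size, with trimmed mean of M-values, TMM, factors) and overlapped between the groups, and 2 of them, Csrp3 and Tnnc1, were called higher in TAC. The markers of 4 other heart cell types were detected in every library too. For the counts that follow, 5.01% of all genes tested were called and 50.9% had an estimate below 0. An unadjusted p under 0.05 was reached by 27.5%. The 15 endothelial markers summed to 631 to 790 CPM in sham and 381 to 531 CPM in TAC, all 15 estimates were below 0 and 3 were called. The 15 fibroblast markers summed to 410 to 588 CPM in sham and 242 to 322 CPM in TAC, with all 15 estimates below 0 and 5 called. For the 15 macrophage and leukocyte markers the sums were 94.3 to 184 CPM in sham and 57.7 to 103 CPM in TAC, all 15 estimates were below 0 and 0 were called by edgeR, 7 of them with an unadjusted p under 0.05. Of 12 mural markers 11 had an estimate below 0 and 2 were called, while their sum, carried mostly by the muscle gene Des, was 2260 to 2398 CPM in sham and 2426 to 2590 CPM in TAC. The 7 red blood cell genes summed to 73.8 to 85.0 CPM in sham and 49.9 to 125 CPM in TAC, and 0 of the 5 tested were called by edgeR or had an unadjusted p under 0.05. A further list held 22 immediate early and isolation stress genes, the heat shock genes Hspa1a and Hspa1b among them. Immediate early genes answer within minutes to stress and to tissue handling. The 22 genes summed to 680 to 1166 CPM in sham and 332 to 357 CPM in TAC. All 22 estimates were below 0 and 10 were called. Defining markers such as Pecam1, Pdgfra and Ptprc were at 0 in no library. The part of these shifts in the cell cycle results was not tested, and in such bulk libraries fewer cells of a type and less RNA per cell cannot be told apart.

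Levels of the 44 genes spanned a wide range on the length-corrected scale of the deposited FPKM (fragments scaled by gene length and by library total). The mean over the 4 libraries exceeded 100 FPKM for 1 gene, lay between 10 and 100 FPKM for 5 genes and between 1 and 10 FPKM for 17, and was under 1 FPKM for 21. Ccng1, a cyclin G gene induced by p53, was the most abundant at a mean of 222 FPKM. It made up 53.1% and 58.3% of the summed FPKM of the members in sham and 57.8% and 59.2% in TAC. E2f6, a repressive E2F factor, followed with 27.0 FPKM, then Ccnd2 with 15.5 FPKM, Ccnd3 with 12.9 FPKM, the replication clamp gene Pcna with 11.2 FPKM and Gadd45g with 10.3 FPKM. The lowest was the mitotic checkpoint kinase gene Bub1 with 0.07 FPKM. All 11 G2 and mitosis genes were under 1 FPKM, as were E2f1, Cdk6, Plk3 and both E-type cyclin genes. So were the replication genes Rrm2, Tk1, Mcm3, Mcm5 and Mcm6.

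**Figure D1:**
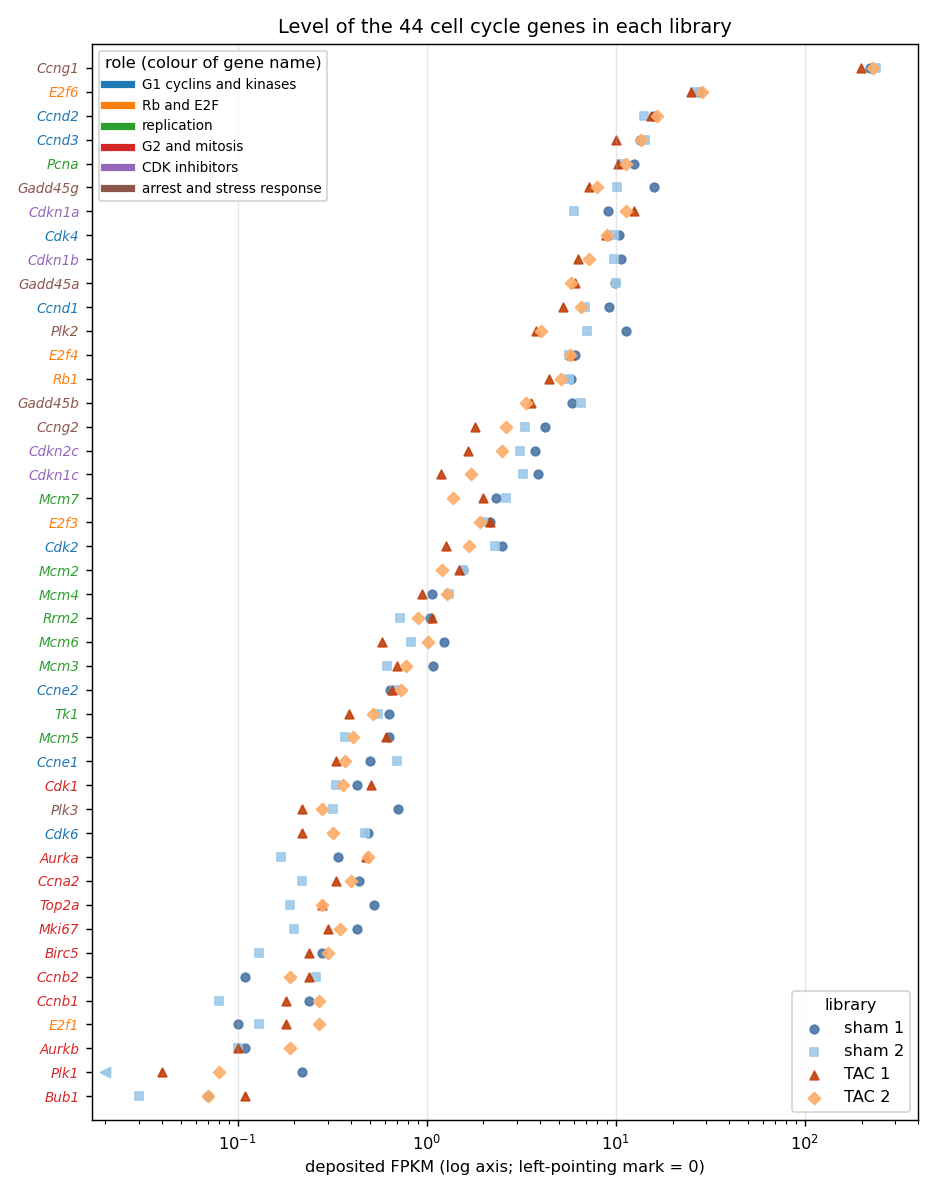
Deposited FPKM of each of the 44 cell cycle genes (rows, ordered by mean over the libraries, name coloured by role) in the 4 libraries, on a log axis. Ccng1 lies apart at the top with a mean of 222 FPKM, and the G2 and mitosis genes fill the bottom, all under 1 FPKM.

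The comparison of TAC with sham asked which of these genes changed in cardiomyocytes of pressure-loaded hearts. Of the 44 members, 40 passed the low-count filter, and 3 of these were called, 1 higher and 2 lower in TAC. Over all 12499 genes tested, 626 were called, or 5.01% (2.58% higher and 2.43% lower), so that the members' share of 7.5% was near the background. The CDK inhibitor gene Cdkn1a rose, and the CDK inhibitor gene Cdkn1c and the Polo-like kinase gene Plk2 fell. Of the 40 members, 20 estimates lay above 0 and 20 below, and the median log2 fold change was 0.01, against -0.01 over all genes tested. An unadjusted p under 0.05 was reached by 14 members, 4 higher and 10 lower, where 27.5% of all genes reached it (13.5% higher and 14% lower). The groups did not overlap for 23 of the 40 members, with TAC above in 8 and below in 15, where this held for 60.1% of all genes tested (29.8% above and 30.3% below). With 2 libraries a group, an exact permutation test of 1 gene cannot give a p below 0.333, so the p-values rest on the spread that edgeR pools over genes. Without TAC 1, 0 members were called by edgeR, and 301 genes, or 2.34%, were called in all.

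The count of 3 called members was the same with RLE factors (4.86% of all genes called), with DESeq2 (8.56% of the 10802 genes to which it gave an adjusted p, 31 of the 40 members among them) and with a filter of at least 5 counts in 2 libraries (4.78%). It was 3 with total-count scaling too, all lower (4.22%), and 4 with totals without mitochondrial genes, all lower (5.1%). These scalings also moved the share of all called genes that were higher in TAC, from 51.4% to 19.9% and 29.5%. limma voom called 4 members (5.54% of all genes), the fit with a replicate block 2 (4.53%) and the fit with no low-count filter 9 (10.5%). Leaving out sham 1 left 2 called members (4.55% of all genes), and 4 were called without sham 2 (5.8%) and 4 without TAC 2 (10.3%). At an adjusted p under 0.1 by edgeR, 9 members passed, 2 higher and 7 lower, where 14.5% of all genes passed (7.02% higher and 7.51% lower).

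**Figure D2:**
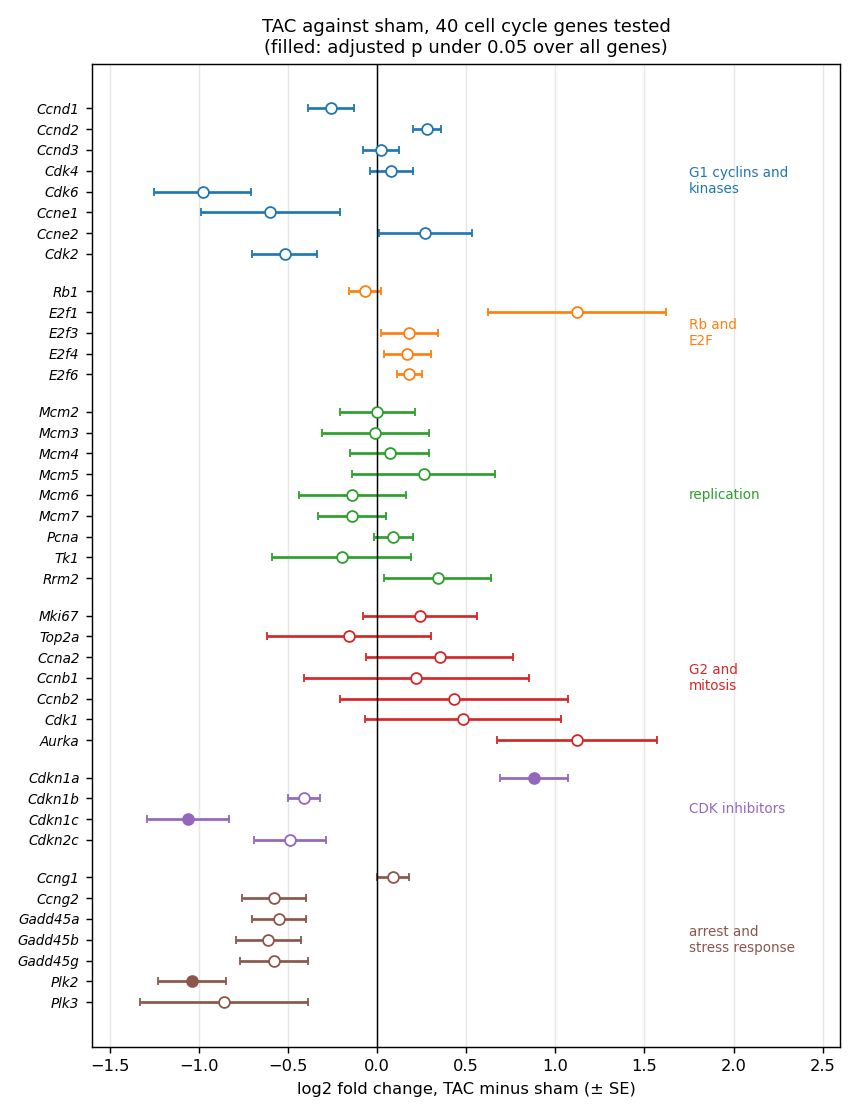
Log2 fold change of TAC over sham with its standard error for the 40 cell cycle genes tested, grouped by role, with filled points for an adjusted p under 0.05. The filled points are Cdkn1a at 0.88, Cdkn1c at -1.06 and Plk2 at -1.04, and 6 of the 7 arrest and stress response genes lie left of 0.

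The CDK inhibitors were the role with the most calls, 2 of 4, in opposite directions. All 4 reached an unadjusted p under 0.05 and all 4 had groups that did not overlap, 1 above sham and 3 below, where over all genes 5.01% were called, 27.5% reached that p and 60.1% did not overlap. The median log2 fold change of the role was -0.45.

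Cdkn1a encodes p21, the Cip/Kip inhibitor that p53 induces and that blocks Cdk2 (ENSMUSG00000023067, GRCm38 chr17:29090976-29100727, plus strand). Its level was 15.5 CPM in sham 1, 10.9 CPM in sham 2, 27.3 CPM in TAC 1 and 21.3 CPM in TAC 2. Both TAC libraries lay above both sham libraries. The mean was 13.2 ± 3.21 CPM in sham and 24.3 ± 4.29 CPM in TAC (SD, n = 2), and the gene was 1.84-fold higher in TAC (log2 fold change 0.88, SE 0.19, edgeR adjusted p = 0.0443). The call was lost when libraries were scaled by total counts (log2 fold change 0.67, edgeR adjusted p = 0.073). It was also lost with totals without the mitochondrial genes (0.77, edgeR adjusted p = 0.071). Relative to the median of all genes, these 2 scalings gave log2 fold changes of 0.87 and 0.88. Without TAC 1 the call was lost too, at a log2 fold change of 0.68. An exon of Cdkn1a overlaps AC167363.2 on the other strand, which has no row in the files, and reads of the pair cannot be told apart where strand is not used in counting.

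Cdkn1c encodes p57, a Cip/Kip inhibitor from an imprinted locus that is active in embryonic growth (ENSMUSG00000037664, GRCm38 chr7:143458339-143461050, minus strand). It was at 6.04 CPM in sham 1, 4.59 CPM in sham 2, 2.33 CPM in TAC 1 and 2.78 CPM in TAC 2. The sham libraries were the higher ones without overlap. The mean was 5.31 ± 1.02 CPM in sham and 2.56 ± 0.318 CPM in TAC (SD, n = 2), 2.08-fold lower (log2 fold change -1.06, SE 0.23, edgeR adjusted p = 0.0454). The call was lost without sham 1 (-0.84, adjusted p = 0.154) and without TAC 1 (-0.93, adjusted p = 0.133), and with the replicate number as a block (-1.05, adjusted p = 0.0548). Its exons overlap those of Gm44732 on the other strand, which likewise has no row.

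Cdkn1b encodes p27, the Cip/Kip inhibitor that marks quiescent cells (ENSMUSG00000003031, GRCm38 chr6:134920401-134925513, plus strand). Its level was 24.3 CPM in sham 1, 24.2 CPM in sham 2, 18.0 CPM in TAC 1 and 18.5 CPM in TAC 2. The libraries of each group lay close together and the groups did not overlap. The log2 fold change was -0.41 (SE 0.09) and just missed the threshold (edgeR adjusted p = 0.0512), and 3 of 12 alternatives called the gene lower. Cdkn2c, the INK4 inhibitor p18 that binds Cdk4 and Cdk6, was at 5.37 and 4.31 CPM in sham and 3.48 and 3.44 CPM in TAC, with a log2 fold change of -0.49 (SE 0.20, edgeR adjusted p = 0.168).

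The make-up of the Cip/Kip family follows from these values and is given as a description. Of the summed FPKM of Cdkn1a, Cdkn1b and Cdkn1c, Cdkn1a took 38.4% in sham 1 and 31.6% in sham 2, and 62.5% in TAC 1 and 56% in TAC 2. Cdkn1b was the most abundant of the family per length in both sham libraries, with 45.2% and 51.4%, and Cdkn1a in both TAC libraries. The share of Cdkn1c was 16.4% and 17.0% in sham and 5.96% and 8.44% in TAC. Such ratios inside a library do not depend on how libraries are scaled. The count ratio of Cdkn1a to Cdkn1b was 0.638 and 0.452 in sham and 1.52 and 1.15 in TAC, a difference of 1.3 on the log2 scale. The pairs were chosen after their values were seen, and the ratios are given with no test. The sum of the 4 inhibitors, in CPM, overlapped between the groups.

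The arrest and stress response genes gave 1 call among 7, Plk2, where 5.01% of all genes were called. Of the 7, 6 had both TAC libraries below both sham libraries and 1, Ccng1, had both above. Over all genes 60.1% did not overlap, 30.3% with TAC below. An unadjusted p under 0.05 was reached by 5, all lower in TAC (14% of all genes), and the median log2 fold change was -0.58.

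Plk2 encodes a Polo-like kinase that acts in G1 and in the stress response rather than in mitosis, and that is induced within a short time by growth signals and by p53 (ENSMUSG00000021701, GRCm38 chr13:110395046-110400844, plus strand). It was at 29.0 CPM in sham 1, 19.1 CPM in sham 2, 12.2 CPM in TAC 1 and 11.2 CPM in TAC 2. The TAC libraries lay close together below sham 2, and sham 1 was the highest. The mean was 24 ± 7 CPM in sham and 11.7 ± 0.674 CPM in TAC (SD, n = 2), 2.06-fold lower (log2 fold change -1.04, SE 0.19, edgeR adjusted p = 0.0310). The call held in 11 of 12 alternatives and missed the threshold without TAC 1 (adjusted p = 0.0518). Without sham 1 the log2 fold change was -0.71. The summed immediate early and isolation stress genes were likewise highest in sham 1 and lowest in the TAC libraries (values above). Their part in this result was not tested.

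Because Plk2 is a gene of fast induction, its promoter was read for the cyclic AMP response element (CRE), the letters TGACGTCA, which are the same on both strands. The window ran from 250 bases before to 50 bases after the start of each gene in RefSeq (GRCm38.p6), and 35 of the 44 members had one. The CRE letters were in the windows of 2.03% of 27025 genes, and among members in those of Plk2 and the replication gene Mcm5. The AP-1 letters TGANTCA, found in 8.97% of genes, were in 0 windows of members. The Plk2 and Mcm5 sites are shown with the CRE in capitals, at chr13:110394971-110395000 and chr8:75109399-75109428, both on the plus strand and upstream of the start.
Plk2: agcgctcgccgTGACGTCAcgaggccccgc
Mcm5: gagttgactcgTGACGTCAccaagacgcca
Plk2 fell, while Mcm5 had a log2 fold change of 0.26 (SE 0.40, edgeR adjusted p = 0.706). The match is a description of letters and not a bound site.

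The 3 Gadd45 genes encode small stress sensors that bind Cdk1 and Pcna and act on stress kinases. Gadd45a was at 11.1 and 11.8 CPM in sham 1 and sham 2 and at 8.57 and 7.08 CPM in TAC 1 and TAC 2. The groups did not overlap, and the log2 fold change was -0.55 (SE 0.15, edgeR adjusted p = 0.0714). Total-count scaling (adjusted p = 0.0408), totals without mitochondrial genes (adjusted p = 0.0496) and the fit with no low-count filter called it lower. Gadd45b was at 6.64 and 7.71 CPM in sham and 5.17 and 4.21 CPM in TAC, again without overlap (log2 fold change -0.61, SE 0.18, adjusted p = 0.0883 by edgeR). Gadd45g was at 15.6 and 10.5 CPM in sham and 8.93 and 8.46 CPM in TAC, with sham 1 well above the rest. Its log2 fold change was -0.58 (SE 0.19, adjusted p = 0.111 by edgeR), and -0.26 without sham 1. Without sham 2 it was -0.83 and the gene was called lower. All 3 estimates were below 0 in each of 12 alternatives, and each gene was called under no low-count filter.

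Ccng2, an unconventional cyclin that is high in resting cells and under FoxO control, was at 10.4 and 8.45 CPM in sham and 5.67 and 6.99 CPM in TAC. Its groups did not overlap (log2 fold change -0.58, SE 0.18, adjusted p = 0.0934 by edgeR). Plk3, a stress-responsive Polo-like kinase, was low, with 1.55 CPM in sham 1, 0.73 CPM in sham 2, 0.61 CPM in TAC 1 and 0.654 CPM in TAC 2. The value of sham 1 was more than that of any other library, and the log2 fold change was -0.86 (SE 0.47, adjusted p = 0.279 by edgeR), or -0.21 without sham 1 and -1.28 without sham 2. Ccng1 was at 710 CPM in sham 1, 801 CPM in sham 2 and 804 CPM in each TAC library (log2 fold change 0.09, SE 0.09, adjusted p = 0.533 by edgeR). Its estimate turned to -0.10 under total-count scaling and -0.01 with totals without mitochondrial genes. Because Ccng1 is so abundant, the summed CPM of the role overlapped between the groups.

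**Figure D3:**
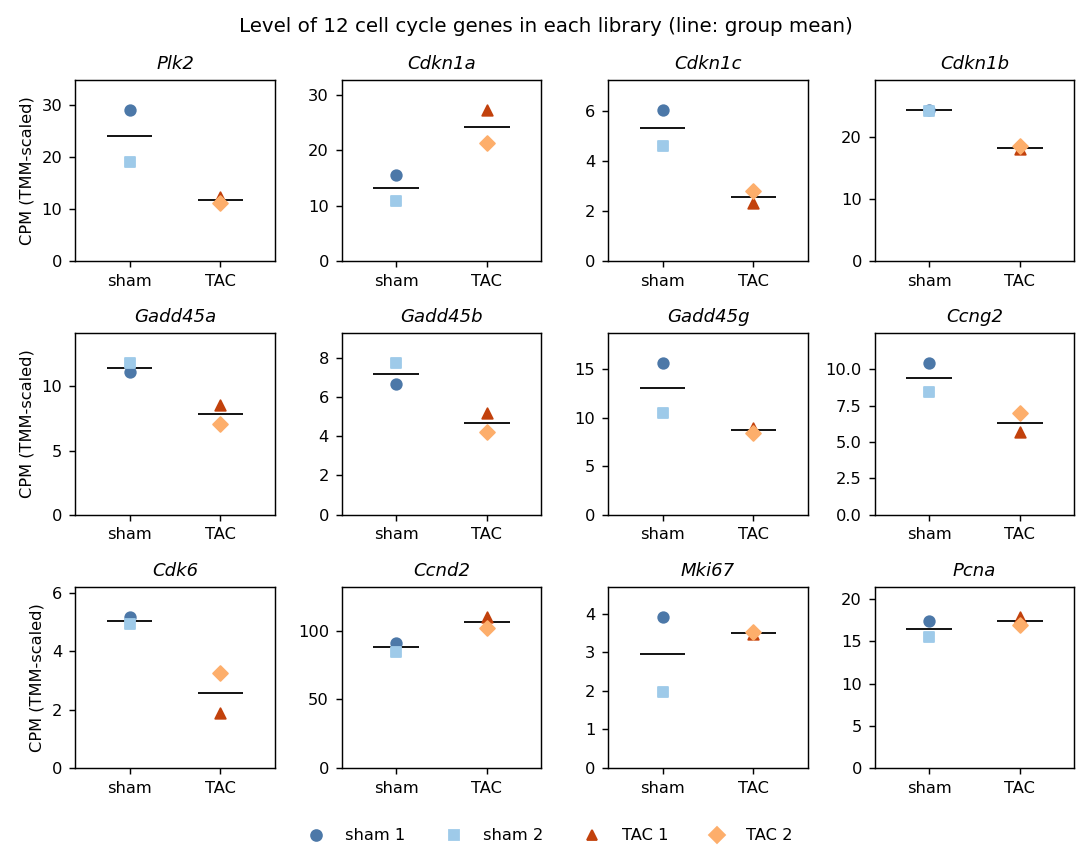
TMM-scaled CPM of 12 cell cycle genes in each library, with a line at each group mean (linear axes from 0, n = 2 per group). The TAC libraries sit below both sham libraries for Plk2, Cdkn1c, Cdkn1b, Gadd45a, Gadd45b, Gadd45g, Ccng2 and Cdk6, and above them for Cdkn1a and Ccnd2, while the groups overlap for Mki67 and Pcna.

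The G1 cyclins and kinases gave no call by edgeR among 8 genes tested, where 5.01% of all genes were called. An unadjusted p under 0.05 was reached by 3, against 27.5% of all genes. The median log2 fold change was -0.12, and 6 of the 8 had groups that did not overlap, 2 above sham and 4 below, a share near the 60.1% of all genes.

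Cdk6, the partner of D-type cyclins that acts beside Cdk4, was at 5.18 CPM in sham 1, 4.93 CPM in sham 2, 1.90 CPM in TAC 1 and 3.27 CPM in TAC 2. Both TAC libraries were below sham, TAC 1 furthest. The mean was 5.06 ± 0.175 CPM in sham and 2.59 ± 0.969 CPM in TAC (SD, n = 2), with a log2 fold change of -0.98 (SE 0.27, edgeR adjusted p = 0.0792). It moved to -0.63 without TAC 1 and to -1.41 without TAC 2. It was called in the latter case (adjusted p = 0.0138) and with no low-count filter (-0.97, adjusted p = 0.0137).

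Ccnd2 encodes cyclin D2, which took 41.4% and 40% of the summed FPKM of the D-type cyclins in sham and 50.3% and 44.9% in TAC. It was at 91.3 CPM in sham 1, 84.3 CPM in sham 2, 110 CPM in TAC 1 and 102 CPM in TAC 2. The TAC libraries were the higher ones, by a log2 fold change of 0.28 (SE 0.08, edgeR adjusted p = 0.0857) that was not called in any of 12 alternatives and ranged over them from 0.08 to 0.34. Cdk2, the partner of E-type cyclins, was at 5.31 and 5.07 CPM in sham and 3.41 and 3.84 CPM in TAC, without overlap (log2 fold change -0.52, SE 0.18, edgeR adjusted p = 0.124).

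The other 5 G1 genes were closer to 0 or had more error. Ccnd1 (cyclin D1) was at 31.5 and 24.7 CPM in sham and 22.6 and 24.5 CPM in TAC. Ccnd3 (cyclin D3) was at 23.5 and 22.6 CPM in sham and 22.5 and 24.2 CPM in TAC, and Cdk4 at 18.0 and 18.4 CPM in sham and 21.0 and 17.3 CPM in TAC, so that both overlapped. The estimate of Cdk4 turned from 0.08 to -0.07 without TAC 1. Ccne1 (cyclin E1) was at 0.916 and 1.35 CPM in sham and 0.753 and 0.736 CPM in TAC. Ccne2 (cyclin E2) was at 1.71 and 1.91 CPM in sham and 2.22 and 2.13 CPM in TAC. The adjusted p of these 5 genes lay between 0.241 and 0.928 (edgeR). Inside a library, and with no correction for length, counts of Ccnd2 were 2.89 and 3.41 times those of Ccnd1 in sham and 4.89 and 4.19 times in TAC, and counts of Cdk4 were 3.47 and 3.74 times those of Cdk6 in sham and 11.1 and 5.3 times in TAC. Counts of Ccnd1, Ccnd3, Cdk4 and Ccna2 were not whole numbers in every library, and the exons of each overlap a gene on the other strand. Exons of 17 of the 44 members overlap another annotated gene, so this limit reaches beyond the genes named.

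Among Rb1 and the E2F genes, 0 of 5 were called by edgeR and 1 had an unadjusted p under 0.05. Over all genes, 5.01% were called and 27.5% reached that p. The estimates of the 4 E2F genes were all above 0, but those of E2f3, E2f4 and E2f6 turned to -0.02, -0.03 and -0.01 under total-count scaling, which moved the median of all genes to -0.2. Relative to that median they were 0.18, 0.17 and 0.19. Without TAC 1, E2f3 was at -0.03.

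E2f6, which represses E2F targets without binding the retinoblastoma protein, was at 60.2 and 60.7 CPM in sham and 69.0 and 68.1 CPM in TAC. The groups did not overlap, with a log2 fold change of 0.18 (SE 0.07, edgeR adjusted p = 0.158). It made up 75.5% to 78.4% of the summed FPKM of the 4 E2F genes. E2f1, the activator of S phase genes, was near the limit of detection, with 8 and 10 counts in sham and 16 and 18 in TAC. In CPM this was 0.253 and 0.347 in sham and 0.574 and 0.736 in TAC, a log2 fold change of 1.12 (SE 0.50, edgeR adjusted p = 0.194). E2f4, the E2F of resting cells, was at 11.1 and 10.9 CPM in sham and 13.3 and 11.4 CPM in TAC (0.17, SE 0.13, edgeR adjusted p = 0.420). Rb1 itself, the pocket protein, was at 24.6 and 25.5 CPM in sham and 23.9 and 23.7 CPM in TAC (log2 fold change -0.07, SE 0.09, edgeR adjusted p = 0.634).

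The replication genes were the role with the smallest spread of estimates. They comprised the 6 Mcm helicase subunits, the clamp Pcna, the thymidine kinase Tk1 and the ribonucleotide reductase subunit Rrm2, which supplies deoxynucleotides. All 9 were tested, 0 were called by edgeR and 0 had an unadjusted p under 0.05. Their log2 fold changes ran from -0.20 to 0.34, with standard errors of 0.11 to 0.40 and a lowest adjusted p of 0.485 (edgeR). Only Tk1 had groups that did not overlap, at 0.822 and 0.765 CPM in sham and 0.646 and 0.736 CPM in TAC. Over all genes tested, 60.1% did not overlap, 27.5% had an unadjusted p under 0.05 and 5.01% were called.

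Rrm2 was at 2.09 and 1.53 CPM in sham and 2.62 and 1.96 CPM in TAC (log2 fold change 0.34, SE 0.30, edgeR adjusted p = 0.485). Pcna, the best measured of the role, was at 17.4 and 15.5 CPM in sham and 17.9 and 17.0 CPM in TAC (log2 fold change 0.09, SE 0.11, edgeR adjusted p = 0.636). Its groups overlapped. Mcm7 was at 4.52 and 4.87 CPM in sham and 4.70 and 3.80 CPM in TAC (log2 fold change -0.14, SE 0.19, edgeR adjusted p = 0.673). The mean levels of the other 5 Mcm genes lay between 1.25 and 4.92 CPM in sham and between 1.49 and 4.89 CPM in TAC. The estimate of each of the 6 Mcm genes turned sign when 1 library or another was left out. At their standard errors, a small change could not be seen at this depth, and these p-values do not show that levels were equal.

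The promoter windows of the replication genes often held an E2F motif, searched as TTTCCCGC, TTTGGCGC, TTTCGCGC and TTTGCCGC on both strands. It was present in the windows of 2.6% of 27025 genes and of 4 of the 8 replication genes that had one, all Mcm genes. Among the other members it was in the windows of Cdk1, Cdk2 and E2f3 and in 0 of the 3 CDK inhibitors and 0 of the 7 arrest genes with a window. One site of each Mcm gene is shown, with the motif in capitals, since these genes are the classical E2F targets of the set and gave no call. In Mcm7 the last base of the motif is the first of a CCAAT box.
Mcm3: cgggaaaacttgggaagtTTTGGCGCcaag
Mcm6: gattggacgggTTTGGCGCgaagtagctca
Mcm7: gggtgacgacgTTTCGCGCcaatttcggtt
Mcm5: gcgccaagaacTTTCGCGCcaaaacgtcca
They lie at chr1:20820263-20820292 and chr1:128359734-128359763 (both minus strand), chr5:138171849-138171878 (minus strand) and chr8:75109345-75109374 (plus strand). The Mcm6 and Mcm5 sites are upstream of the start, and the Mcm3 and Mcm7 sites just past it. The log2 fold changes of the 4 genes were -0.01, -0.14, -0.14 and 0.26, in the order shown.

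The G2 and mitosis genes were low, with 19 to 364 counts each over all libraries together. Of 11 genes, 7 passed the low-count filter, 0 were called by edgeR and 1, Aurka, had an unadjusted p under 0.05. Over all genes, 5.01% were called and 27.5% reached that p. The 11 together held 334 and 146 counts in the sham libraries and 273 and 229 in the TAC libraries, or 10.6, 5.07, 9.79 and 9.37 CPM. Sham 2 was the low library, and both TAC libraries lay between sham 2 and sham 1. The median log2 fold change of the 7 was 0.35, but 0.87 without sham 1 and -0.02 without sham 2.

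Mki67, which encodes the proliferation antigen Ki-67, was at 3.92 CPM in sham 1, 1.98 CPM in sham 2, 3.48 CPM in TAC 1 and 3.52 CPM in TAC 2. The TAC libraries lay between the sham libraries (log2 fold change 0.24, SE 0.32, edgeR adjusted p = 0.664). Top2a, the topoisomerase of chromosome condensation, showed the same order with sham 1 highest and sham 2 lowest, at 2.53 and 0.938 CPM in sham and 1.69 and 1.43 CPM in TAC (log2 fold change -0.16, SE 0.46, edgeR adjusted p = 0.851). Leaving out 1 sham library turned the direction of several of these genes, with Top2a at 0.73 and Ccnb2 at -0.08 without sham 1, and Mki67 at -0.16, Ccna2 at -0.02 and Ccnb1 at -0.34 without sham 2. Aurka, the Aurora kinase of the spindle poles, had 18 and 9 counts in sham and 29 and 22 counts in TAC. This was 0.569 and 0.313 CPM in sham and 1.04 and 0.90 CPM in TAC, without overlap (log2 fold change 1.12, SE 0.45, edgeR adjusted p = 0.164).

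Cdk1, the kinase that starts mitosis, had 18 and 7 counts in sham and 17 and 13 in TAC, or 0.569 and 0.243 CPM in sham and 0.61 and 0.532 CPM in TAC. The TAC libraries overlapped the sham range (log2 fold change 0.48, SE 0.55, edgeR adjusted p = 0.603). Ccna2 (cyclin A2) was at 1.17 and 0.625 CPM in sham and 1.11 and 1.19 CPM in TAC (log2 fold change 0.35, SE 0.41, edgeR adjusted p = 0.618). The B-type cyclin genes had 17 and 5 counts (Ccnb1) and 5 and 11 counts (Ccnb2) in sham, and 11 and 11 counts and 12 and 7 counts in TAC. The 4 genes under the filter were Aurkb, Birc5, Bub1 and Plk1, with 0 to 12 counts in any library. Plk1, the mitotic Polo-like kinase, had 12 counts in sham 1 but 0 in sham 2, and it had 3 and 4 in the TAC libraries. Fitted with no filter, these 4 had edgeR adjusted p-values of 0.522 to 0.854.

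The promoter windows of mitotic genes were read for the cell cycle homology region (CHR), the letters TTTGAA on both strands, through which such genes are known to be held silent in resting cells. It was in the windows of 20.2% of 27025 genes and of 6 of the 9 G2 and mitosis members with a window. It was in 1 of 8 replication genes, 1 of 3 Rb and E2F genes (E2f3), 0 of 5 G1 genes, 0 of 3 CDK inhibitors and 0 of 7 arrest genes. A CCAAT box, found in 41.1% of genes, was in 8 of the 9, but also in 7 of 8 replication genes, 2 of 3 CDK inhibitors and 4 of 7 arrest genes. Sites of the genes described above are shown with the CHR in capitals.
Mki67: ttagcgccagaaTTTGAAccgccgttttgg
Top2a: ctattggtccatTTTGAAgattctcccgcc
Cdk1: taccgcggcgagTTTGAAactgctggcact
Aurka: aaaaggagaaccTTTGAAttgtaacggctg
Plk1: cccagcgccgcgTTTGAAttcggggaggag
They lie at chr7:135716478-135716507, chr11:99024351-99024380, chr10:69352910-69352939 and chr2:172370521-172370550 (minus strand) and chr7:122159453-122159482 (plus strand). The first 3 are upstream of the start and the last 2 past it. Each of these genes was under 1 FPKM.

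A sum by role is ruled by its most abundant genes and can hide opposite moves, as with Ccng1 among the arrest genes, whose median was -0.58. The summed CPM of the roles stayed within 0.162 of the sham mean on the log2 scale in the TAC libraries, with the G2 and mitosis genes as the exception at 0.321 and 0.258. For Rb and E2F both TAC sums, at 0.162 and 0.099, lay above the sham sums of -0.007 and 0.007. So did those of the G1 genes, at 0.114 and 0.066 against 0.058 and -0.061. These directions depended on the scale. In summed FPKM, Rb and E2F overlapped, at 41.8 and 39.9 in sham and 37.7 and 41.9 in TAC. The G1 genes were lower in TAC, at 53.2 and 49.3 FPKM in sham and 42.1 and 48.7 FPKM in TAC. The summed CPM of all members was 1170 and 1215 in sham and 1251 and 1227 in TAC, most of it Ccng1. In deposited FPKM the direction turned, at 418 and 407 in sham and 344 and 390 in TAC. Over the same libraries, the summed endothelial, fibroblast, and immediate early and isolation stress lists were lower in TAC (values above).

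**Figure D4:**
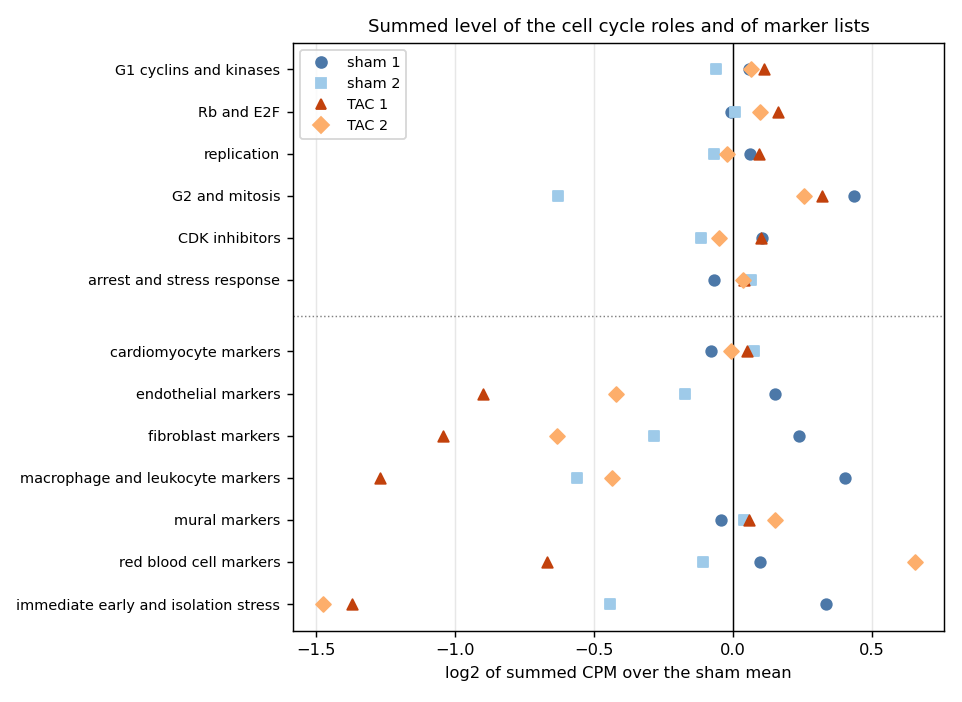
Summed CPM of each cell cycle role (top) and each marker list (bottom) in the 4 libraries, as log2 over the sham mean. The roles stay near 0 except the G2 and mitosis genes, which spread from -0.628 in sham 2 to 0.436 in sham 1. The fibroblast, endothelial, and immediate early and isolation stress lists lie left of both sham libraries in both TAC libraries.

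Further genes of the cell cycle, 118 in 5 lists, were read in the same fit. Of these 117 were in the files, 98 were tested, and 3 were called, 1 higher and 2 lower, against 5.01% of all genes. The median log2 fold change was -0.08, and 14 genes (14.3%) had an unadjusted p under 0.05, 4 higher and 10 lower, against 27.5% of all genes. The lists of E2F, pocket and DREAM factors (11 tested), origin licensing and replication fork (32 tested) and cyclins, CDK-activating kinase and inhibitors (15 tested) gave 0 calls by edgeR, with 2 genes in each at an unadjusted p under 0.05. Mitotic kinases, spindle and checkpoint genes gave 2 calls among 26 tested, with 3 genes at an unadjusted p under 0.05 (1 higher, 2 lower). Among p53 and its targets 1 of 14 tested was called, and 5 had an unadjusted p under 0.05, 3 higher and 2 lower. DESeq2 called Perp and Sesn1 of this list, whose log2 fold changes by edgeR were 0.36 (SE 0.08, adjusted p = 0.0538) and 0.34 (SE 0.10, adjusted p = 0.0803). Outside the reported fit, Tfdp2, the dimer partner of E2F factors (-0.42, SE 0.10, edgeR adjusted p = 0.0619), was called lower in 7 of 12 alternatives. The cyclin L gene Ccnl1 (-0.49, SE 0.13, edgeR adjusted p = 0.0648) was called in 3, total-count scaling, totals without mitochondrial genes and no low-count filter. These 4 genes were picked after their values were seen, and with no low-count filter Aen and Mdm4 were called too.

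Btg2, an antiproliferative gene induced by p53 and an early responder to stimuli (ENSMUSG00000020423, GRCm38 chr1:134075170-134079120, minus strand), was at 149 CPM in sham 1, 105 CPM in sham 2, 44.8 CPM in TAC 1 and 36.6 CPM in TAC 2. The TAC libraries were far below sham, 3.12-fold (log2 fold change -1.64, SE 0.17, edgeR adjusted p = 0.00519). Cenpf, which encodes a centromere protein of G2 and mitosis (ENSMUSG00000026605, GRCm38 chr1:189640606-189688086, minus strand), was at 17.7 and 16.9 CPM in sham and 5.17 and 7.03 CPM in TAC. Its groups were clearly apart, 2.85-fold (log2 fold change -1.51, SE 0.16, edgeR adjusted p = 0.00590), and its mean of 1.09 FPKM over the libraries was above that of each of the 11 G2 and mitosis members. Both genes were called in all 12 alternatives.

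Ube2c, the ubiquitin-conjugating enzyme of the anaphase-promoting complex, had 8 and 4 counts in sham and 38 and 28 counts in TAC. The log2 fold change was 2.64 (SE 0.48, edgeR adjusted p = 0.0296). The call was lost without sham 2 (2.30, adjusted p = 0.0583) and without TAC 1 (2.51, adjusted p = 0.133), and DESeq2 gave the gene no adjusted p (2.67). Its exons overlap those of Tnnc2 on the other strand, a troponin gene of fast skeletal muscle that the files list at 0 in every library, and reads of the pair cannot be told apart without strand. The 3 called genes did not move in 1 direction, and Cenpf and Ube2c, both mitotic, moved oppositely.

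**Figure D5:**
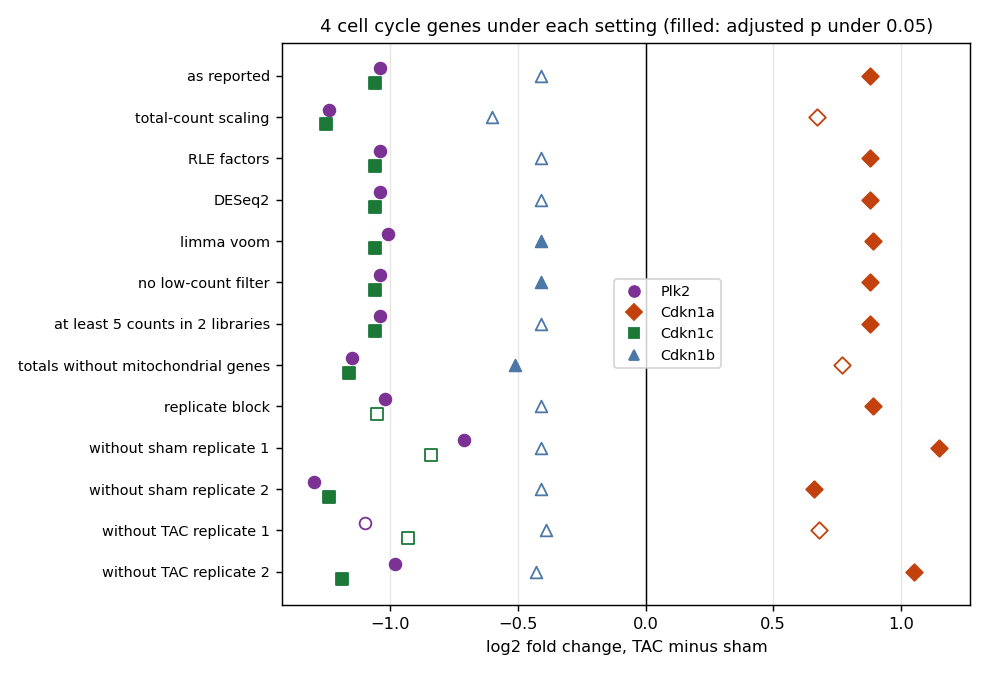
Log2 fold change of Plk2, Cdkn1a, Cdkn1c and Cdkn1b as reported and under 12 alternatives (rows), filled where the adjusted p was under 0.05. No estimate crosses 0, and without TAC replicate 1 every point is open.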

How the data were processed

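The authors sequenced RNA of isolated cardiomyocytes from 2 sham and 2 TAC mice. Their deposited files give, per gene, an expected count and an FPKM. Per the labels, Bowtie2 2.2.8, StringTie 1.3.1 and mm10 are named in the submitters' processing notes, with no role. Neither the counting tool nor its use of strand was given in the sources used here. Expected counts were rounded, 1432 to 1519 genes per library being not whole, and analysed with edgeR 4.0.16 (R 4.3.3): filterByExpr, TMM factors, glmQLFit and glmQLFTest of TAC against sham, with Benjamini-Hochberg adjustment over 12499 of 22322 genes. The deposited FPKM served for levels per length. Libraries of a group differed beyond sampling noise (chi-square per degree of freedom 8.08 for sham and 26.71 for TAC), and all 4 were kept.

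Members and lists were chosen with earlier results of these data known, and no set test was run. Full statistics were given for called members and the 3 members of each role with the lowest adjusted p, and, of the other lists, for called genes. Alternatives were total-count scaling (the study's own), RLE factors, DESeq2 1.42.0, limma 3.58.1 voom, other filters, totals without mitochondrial genes, a replicate block and leaving out each library. Gene positions were from GENCODE (GRCm38) and promoter windows from RefSeq.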

Additional observations from a re-analysis of the deposited data

How the results depend on the processing

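Of the fold changes of single genes under the 12 alternatives, 450 kept direction and side of the threshold, 12 came to pass it, 9 ceased to, and 35 turned sign, none of them called before or after. A further 10, Ube2c among them, had no adjusted p by DESeq2 and are not counted. Leaving out each library in turn gave 301 to 1336 called genes, 0 to 4 called members (0 to 1 higher, 0 to 3 lower) and 2 to 5 of the other cell cycle genes. In the same order of roles, the medians then ran from -0.18 to -0.01 (G1 cyclins and kinases), 0.05 to 0.28 (Rb and E2F), -0.04 to 0.13 (replication), -0.02 to 0.87 (G2 and mitosis), -0.52 to -0.36 (CDK inhibitors) and -0.71 to -0.42 (arrest and stress response). With no low-count filter 1676 genes, 9 members (8 lower) and 9 other cell cycle genes were called. At an adjusted p under 0.1 there were 1817 genes, 9 members (2 higher, 7 lower) and 11 others, and at 0.01 there were 92 genes and 0 members (0 higher, 0 lower) by edgeR. Total-count scaling, which moved the median of all genes from -0.01 to -0.2, left 0 members higher, 3 lower and 5 others, and the role medians were -0.31, -0.02, -0.21, 0.15, -0.64 and -0.78 (G1, Rb and E2F, replication, G2 and mitosis, CDK inhibitors, arrest). Totals without mitochondrial genes (median of all genes -0.11) left 0 members higher, 4 lower and 6 others, with role medians of -0.22, 0.08, -0.11 and -0.55 (G1, Rb and E2F, replication, CDK inhibitors). DESeq2 called 5 others. The causes of these shifts were not tested, apart from the scalings, which move all genes together. The replicate block left 1 member lower (Cdkn1c was lost) and changed no other member's call. The methods of the study count 4 pairs of sham and TAC mice, the RNA-seq mice among them. The numbers of the libraries are not stated to mark these pairs, shared litters or days. With 2 libraries a group, small changes of genes under 1 FPKM could not be seen.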
